A study of Arabis alpina with 2 samples.

Results

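The variants described here lie on assembly sequences of Arabis alpina that are not assigned to any of the 8 chromosomes. They were chosen by name alone: every listed single-base variant whose sequence is not chromosome 1 to 8 was taken. This gave 2001 of the 14923 variants in the pool list (13.4%) and 1802 of the 14029 in the progenitor list (12.8%). Together they covered 2507 positions on 398 sequences, of which 397 are named as scaffolds and 1, 000810F, is not.

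Both libraries were whole-genome DNA libraries from flower buds of plants of the Pajares accession, grown in long days and taken as reproductive growth began. The pool was eop055BC1F2, mutant-phenotype plants from the selfed progeny of a backcross between an eop mutant line and its progenitor. The progenitor was pep1-1, the mutant in which the eop line was induced, so both groups carry pep1-1, which abolishes the requirement of this perennial species for cold before flowering. There was 1 library per group and the number of plants behind each was not given in the sources used here. No difference between the groups therefore has a replicate check, and tests compare the reads of these libraries.

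A genome assembly keeps sequences unplaced when no linkage or scaffolding evidence anchors them, and repeats are a common reason. Where near-identical copies of a locus are represented once in an assembly, their reads pile up on that copy and the differences between copies are listed as variants at intermediate frequency. Plant cells also hold many plastid and mitochondrial genomes and long ribosomal DNA arrays, and nuclear DNA carries insertions from both organelles. Alkylating mutagens mostly turn G into A, which reads as C-to-T on the other strand. No reference sequence was used here, so genes, repeats and organelle origin at these positions were not analysed, and no bases are shown.

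The positions were spread over many sequences with few sites each. The median was 3 positions per sequence, 93 sequences had a single position, and 71 had a pair. In contrast, 73 sequences with 10 or more positions held 1453 of the 2507, or 58.0%. Scaffold_254 led with 85 positions, of which 82 were in the pool list, 84 in the progenitor list and 81 in both. Scaffold_144 followed with 67 positions, of which 40 were in both lists. All 47 positions of scaffold_272 were in both lists, and they lay within 3678 bases. The highest listed coordinate was 972073, on scaffold_76, so at least that sequence is long.

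**Figure D1:**
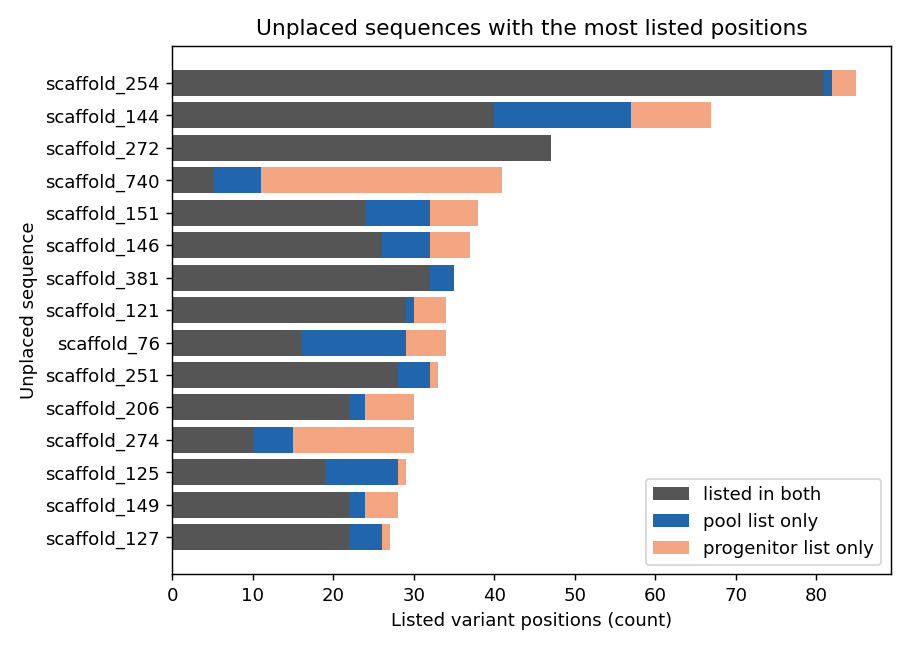
Number of listed positions (x axis) on the 15 unplaced sequences with the most of them (y axis), split into positions listed in both libraries, in the pool alone and in the progenitor alone. Scaffold_254 has 85 positions, nearly all shared, whereas most of the 41 on scaffold_740 are in the progenitor list alone.

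Sites clustered tightly along the sequences. The median distance between neighbouring sites of the pool list was 86 bases on unplaced sequences and 105 on the chromosomes, and 78.8% of unplaced neighbours were within 1000 bases against 60.1% on chromosomes. In the progenitor list the median distances were nearly equal, 80.5 bases on unplaced sequences and 80 on chromosomes. The unplaced share within 1000 bases was 80.6% there, against 63.5%. Sequence lengths were not used here, so short sequences, which cannot hold long distances, may contribute to these shares and their part was not tested. Unplaced neighbours within 100 bases carried similar allele frequencies, with median absolute differences of 0.0245 (pool) and 0.0257 (progenitor). Chromosomal ones did too, at 0.0176 and 0.02. Over 1000 bases apart the differences were 0.164 and 0.177 on unplaced sequences, and 0.16 and 0.135 on chromosomes. Close unplaced neighbours were also covered alike, by a median factor of 1.06 in the pool, against 2 at the larger distance. On chromosomes these factors were 1.04 and 1.57. Reads that span both neighbours contribute to both values, so neighbouring sites are not independent observations.

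Without minimums, unplaced sites were listed in both libraries about as often as sites on chromosomes. Of the unplaced pool sites 1296, or 64.8% (95% Wilson interval 62.7 to 66.8%), recurred with the same alternative base in the progenitor, against 65.4% on the chromosomes (64.6 to 66.3%). Of the unplaced progenitor sites 71.9% (69.8 to 73.9%) were shared, against 69.2% (68.3 to 70.0%). These and all later intervals cover counting error only. A position missing from a list may be covered too thinly or with too low a score to be listed, so it is not shown to carry the reference base.

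Several sequences were named in 1 list and not in the other. The pool list named 86 such sequences and the progenitor list 44, leaving 268 in both. Their sites were few and thin. The 162 sites of the first kind were covered by 4 reads at the median, and only 24 of them (14.8%) reached both 25 in variant quality and 10 reads of coverage. The 74 sites of the second kind also had a median coverage of 4, and 3 of them (4.05%) passed those minimums.

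The longest run of positions in 1 list alone was on scaffold_740. Between positions 5386 and 6316 of this sequence the progenitor list held 30 consecutive positions that the pool list did not. Their coverage ran from 4 to 43 reads with a median of 19, 19 of them were near-fixed, meaning an allele frequency of 0.9 or more, and 15 were at 1. Transitions (exchanges between A and G or between C and T) made up 24 of the 30. On the same sequence the pool list held 11 positions, from A2699C to G9830A, with coverage from 34 to 56. All 11 were near-fixed and their median variant quality was only 9.04. The next longest runs belonged to the pool, 11 positions on scaffold_259 with a median of 10 reads and 10 on scaffold_289 with a median of 101.5 reads and a median allele frequency of 0.441. Scaffold_259 and scaffold_289 were picked after their values were seen.

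The coverage of unplaced sites was more dispersed than their median shows. For the pool that median was 110 reads (interquartile range 45 to 154, 1 to 7250 overall), and for the progenitor 102 (40 to 152, 1 to 6936). On the chromosomes it was 105 (55 to 132) and 99 (35 to 138). To read coverage as copies, it was divided by a 1-copy depth, the median over the 1160 chromosomal sites that were near-fixed in both libraries. This depth was 69 reads in each library. The quotient is called relative depth below. It can also be lowered by poor mappability, and coverage at variant sites need not represent a whole sequence. The 1160 sites had no upper limit on coverage, and deep sites were among them. In each list taken alone, 371 chromosomal pool and 389 progenitor sites at a relative depth of 10 or more were near-fixed. With both minimums and at most 100 reads in each library, 692 such sites remained. Their median coverage was 62 (pool) and 61 (progenitor). Dividing by these values would raise every relative depth, so sequences close to a class limit could change class, and was not tried. The alternative tried, 66 reads in the pool, came from sites listed in the pool alone.

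By the median relative depth of their sites, most unplaced sequences departed from 1 copy. Of 197 sequences with at least 3 sites in the pool list, 50 (25.4%) lay between 0.5 and 1.5 and are called single-copy here. Another 84 (42.6%) lay between 1.5 and 10 and are called collapsed, 9 (4.57%) lay at 10 or more and are called high-copy, and 54 (27.4%) lay below 0.5 and are called thin. In the progenitor list 48 of 167 sequences (28.7%) were single-copy, 71 (42.5%) collapsed, 7 (4.19%) high-copy and 41 (24.6%) thin. The names describe depth only. Depths above 1 copy were not particular to unplaced sequences. Of chromosomal sites, 40.2% (pool) and 35.5% (progenitor) lay at 1.5 to 2.5, against 31.8% and 28.2% of unplaced sites. At 2.5 to 3.5 the chromosomal shares were 5.25% and 6.10%, against 7.45% and 6.27%. From 3.5 to 10 they were 2.05% and 2.08%, against 9.5% and 8.82%. At 0.5 to 1.5 they were 37.7% and 28.3%, against 24.3% and 28.8%.

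Most sequences kept their class between the libraries. With at least 3 sites in both lists, 92 of 136 sequences (67.6%) had the same class, including 54 collapsed, 17 single-copy, 15 thin and 6 high-copy sequences. The commonest change, for 21 sequences, was collapsed in the pool and single-copy in the progenitor, against 9 in the opposite direction. Several of these lay close to the limit of 1.5, such as scaffold_206 at 1.69 and 1.43. A few moved far, such as scaffold_294 at 15.7 in the pool and 1.72 in the progenitor. Scaffold_206 and scaffold_294 were picked after their values were seen, and both lists do not hold the same sites of a sequence.

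**Figure D2:**
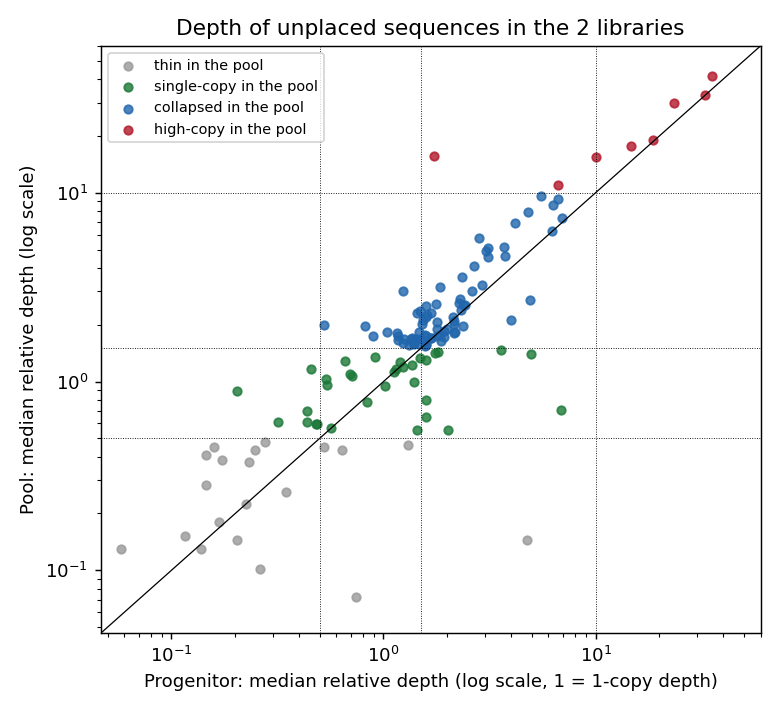
Median relative depth of each unplaced sequence with at least 3 sites in both lists, in the progenitor (x axis) and the pool (y axis), both on log scales. Points are the 136 sequences, coloured by their class in the pool, dotted lines mark 0.5, 1.5 and 10, and the solid line marks equality. The 92 sequences with an unchanged class lie in the boxes along that line.

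The classes differed in allele frequency. Sites of collapsed sequences centred near 0.5. The 1064 pool sites had a median of 0.492 (interquartile range 0.403 to 0.606) and the 823 progenitor sites one of 0.5 (0.419 to 0.621). Of them, 51.0% and 51.8% lay between 0.4 and 0.6, and 79.6% and 84.2% were at positions listed in the other library too. Sites of single-copy sequences spread more widely, with medians of 0.555 (pool, 0.379 to 0.961) and 0.547 (progenitor, 0.421 to 0.904). Of those, 31.7% and 25.9% were near-fixed, against 10.1% and 8.75% in collapsed sequences. Sites of high-copy sequences were mostly near-fixed, 63.3% of 60 sites in the pool and 59.6% of 57 in the progenitor. Sites of thin sequences were near-fixed at 53.4% and 53.3%.

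Site by site, the median of the pool was lower at single-copy depth than in each range from 1.5 to 10, unlike in the classes. In the progenitor the order depended on the range. At a relative depth of 0.5 to 1.5 the median allele frequency was 0.447 over 487 unplaced pool sites (0.319 to 0.836) and 0.505 over 519 progenitor sites (0.385 to 0.771), against 0.4 and 0.427 on chromosomes. In this range 20.7% of the unplaced pool sites and 17.9% of the progenitor sites were near-fixed. At 1.5 to 2.5, with 637 unplaced pool sites (31.8%), the median allele frequency was 0.486 on unplaced sequences and 0.475 on chromosomes. Reads of the reference base then amounted to 0.942 of the 1-copy depth (interquartile range 0.826 to 1.06) and reads of the alternative base to 0.899 (0.754 to 1.03). In the progenitor, 508 unplaced sites in this range gave 0.942 for the reference base and 0.913 for the alternative base. Their median allele frequency was 0.488, below that at 0.5 to 1.5. From 3.5 to 10 the unplaced medians were 0.660 (pool) and 0.697 (progenitor), against 0.575 and 0.630 on chromosomes, and 22.6% and 27.0% of the unplaced sites were near-fixed.

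At a relative depth of 10 or more the alternative base took most reads. The 105 unplaced pool sites had a median allele frequency of 0.936 (0.664 to 0.965), and the 91 progenitor sites had 0.941 (0.684 to 0.968). On the chromosomes such sites stood at 0.973 and 0.988. Reference reads at the unplaced sites amounted to 1.67 copies (pool, 0.855 to 5.30) and 1.41 copies (progenitor, 0.826 to 5.17), whereas alternative reads amounted to 15.6 and 14.4 copies. At chromosomal sites of this depth reference reads amounted to 0.986 and 0.754 copies.

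Below 0.5 copies the allele frequencies of unplaced sites were higher than those of chromosomal sites, and more of the unplaced sites had very few reads. The 433 unplaced pool sites had a median allele frequency of 1 (0.571 to 1), and 228 of them (52.7%) had no reference read. The 1466 chromosomal sites had a median of 0.28 (0.222 to 0.5), and 12.7% had none. In the progenitor the medians were 1 over 412 unplaced sites and 0.304 over 2991 chromosomal sites. The median coverage was also lower on unplaced sequences, 8 reads against 26 in the pool and 12 against 20 in the progenitor. With at least 10 reads the unplaced medians were 0.774 (189 sites) and 0.875 (224 sites), and the chromosomal ones 0.267 and 0.286. Sites with 5 reads or fewer made up 39.95% of these unplaced pool sites and 6.34% of the chromosomal ones, and 33.5% and 8.56% in the progenitor. Among them the median was 1 in both places and both lists, and 87.3% of the unplaced and 88.2% of the chromosomal pool sites had no reference read.

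**Figure D3:**
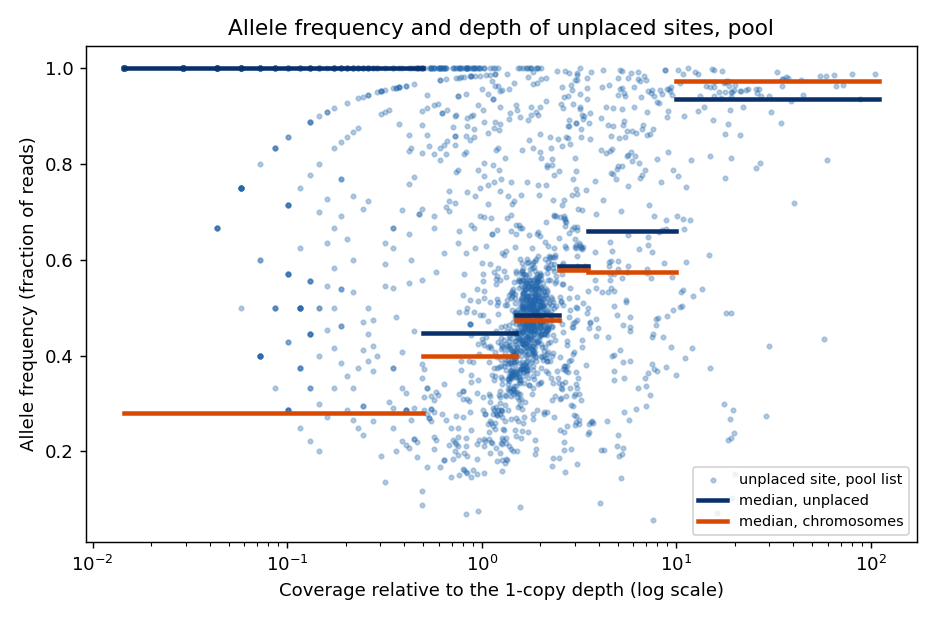
Allele frequency (y axis) against coverage relative to the 1-copy depth (x axis, log scale) for the 2001 unplaced sites of the pool list. Horizontal bars give the median in each of 6 depth ranges for unplaced and for chromosomal sites. The bars part most below 0.5, at 1 against 0.28, and nearly coincide between 1.5 and 2.5, at 0.486 against 0.475.

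The sequences with the most sites were mainly collapsed ones. Scaffold_254 had a relative depth of 1.77 in the pool and 1.84 in the progenitor, with median allele frequencies of 0.493 and 0.5. Both libraries placed 63 of its 81 shared sites between 0.4 and 0.6, and none of its sites was near-fixed. On scaffold_272, at 1.90 and 1.80, 39 of 47 shared sites lay in that range, and the frequencies ran from 0.268 to 0.603 in the pool and from 0.383 to 0.616 in the progenitor. Scaffold_146 (1.69 and 1.51), scaffold_251 (1.71 and 1.67) and scaffold_381 (2.19 and 2.14) had medians from 0.467 to 0.546. Scaffold_144 and scaffold_76 lay lower, with pool medians of 0.407 and 0.378 and progenitor medians of 0.437 and 0.422. Neither scaffold_146 nor scaffold_251 nor scaffold_76 had a near-fixed site in either list.

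Scaffold_121 and scaffold_151 were of another make-up. The 30 pool sites of scaffold_121 had a median frequency of 0.460, but their coverage ran from 24 to 4471 reads in the pool and from 2 to 3302 in the progenitor, and 5 and 7 sites were near-fixed. Scaffold_151 had a single-copy depth, 1.22 and 1.37, although with a quality of at least 25 its pool depth was 1.72, a collapsed one, and 24 of its 32 pool sites and 22 of its 30 progenitor sites were near-fixed. Over all 52 sequences with at least 10 pool sites, 20 had no near-fixed site and in 10 at least 50% were near-fixed. The progenitor gave 17 and 10 of 53.

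Of sequences with at least 5 sites, the 5 deepest were the same in both libraries, and scaffold_313 led them with medians of 2860 pool and 2438 progenitor reads. Its relative depth in the pool was 41.4, and 79.9 with a quality of at least 25. Its site A19273G was the deepest of both lists on unplaced sequences, with 7169 of 7250 pool reads (0.989) and 6836 of 6936 progenitor reads (0.986). C19545G on the same sequence had 5448 of 5511 pool reads and 4692 of 4751 progenitor reads. Its C19476T, with 5716 of 6110 reads (0.936), was listed in the pool alone. The range within the sequence was wide, since A27679C had 157 pool and 94 progenitor reads, at 0.522 and 0.5.

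Scaffold_244, with median coverages of 2283 and 2273 reads, was near-fixed at 9 of 9 sites (pool) and 12 of 13 (progenitor). Among the deepest sites were its A25856G, with 4987 pool and 4688 progenitor reads, and its C25907A, with 3793 and 4737. Scaffold_221 (2071 and 1624 reads) and scaffold_120 (1224 and 1020 reads) were near-fixed at 7 of 7 and 13 of 15 pool sites, and at 5 of 6 and 10 of 12 progenitor sites. The remaining sites among the deepest were C21876G on scaffold_355 (4584 pool and 3764 progenitor reads) and C22981A on scaffold_282 (5686 reads, progenitor list alone).

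Scaffold_799 was as deep but did not follow that pattern. The medians of scaffold_799 were 1313 pool and 1283 progenitor reads, at allele frequencies of 0.278 and 0.255. C7746A had 365 of 1219 pool reads and 350 of 1193 progenitor reads. G9340A had 945 of 1226 and 986 of 1233 reads, and C9950G stood at 0.956 and 0.945, the only near-fixed site. Over its 10 shared sites the median absolute difference between the libraries was 0.0205.

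At the thin end, most sites rested on very few reads. The sequence scaffold_511 had a median coverage of 1 read over its 5 pool sites, scaffold_158 and scaffold_793 had 3, scaffold_827 had 4 and scaffold_357 had 5. No site of scaffold_511, scaffold_158, scaffold_793 or scaffold_827 was listed in both libraries, and scaffold_357 shared 2. Allele frequencies of 1 on scaffold_511 therefore rest on 1 to 5 reads each. On scaffold_357 the coverage was mixed: G21821A, C20262T and C21648T had 132, 193 and 226 pool reads, and the other 4 pool sites had 1 to 5. Its relative depth was 0.0725 in the pool, 3.04 there with a quality of at least 25, and 0.739 in the progenitor.

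Shared unplaced sites were similarly frequent in both libraries. Their median allele frequencies were 0.525 (pool) and 0.528 (progenitor), with a median absolute difference of 0.0415, against 0.0444 on the chromosomes. Across the 1296 sites, which share libraries and neighbours, Pearson's r was 0.939 and Spearman's rho 0.899, given as a description. Of them, 241 (18.6%) were near-fixed in both libraries and 432 (33.3%) lay between 0.4 and 0.6 in both, against 13.7% and 41.9% of chromosomal shared sites.

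A test of reads site by site found few differences. Fisher's exact test, two-sided, adjusted by Benjamini-Hochberg over all 9753 shared sites, called 25 unplaced sites at 0.05, or 1.93% of 1296. The background over all shared sites was 3.21%. Of the 25, 14 were higher in the pool (1.08%, background 0.605%) and 11 were lower (0.849%, background 2.60%). Without adjustment 128 unplaced sites had p below 0.05. The called sites lay on 17 sequences, with a median coverage of 182 pool reads and a median absolute difference of 0.191. On chromosomes the 288 called sites had a median of 2879 pool reads and a median difference of 0.0149, so the called sites of the chromosomes were deeper and closer in frequency. The calls depended on the filter. When both libraries had to pass the minimums, 14 of 877 unplaced sites were called, against 277 of 7564 over all sites. At up to 100 reads in both libraries it was 5 of 345 against 29 of 2434, so the unplaced share was then the higher one. By Bonferroni it was 1 of 1296 against 158 of 9753.

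Both directions occurred among the largest differences. C20547T on scaffold_443 had 18 of 30 pool reads (0.6) and 24 of 24 progenitor reads (1; exact test, adjusted p = 0.0190). A46420T on scaffold_127 had 67 of 132 reads (0.508) and 24 of 27 (0.889; exact test, adjusted p = 0.00894). G2045C on scaffold_480 had 39 of 70 (0.557) and 75 of 86 (0.872; exact test, adjusted p = 0.000666), and G6339T on scaffold_855 had 54 of 100 and 61 of 76 (exact test, adjusted p = 0.0159). These 4 were lower in the pool. G15008A on scaffold_495 was higher, with 55 of 71 reads (0.775) against 48 of 100 (0.48; exact test, adjusted p = 0.00603).

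On scaffold_157 and 000810F, neighbouring sites differed together. On scaffold_157, G93006A stood at 0.416 (32 of 77 reads) in the pool and 0.167 (13 of 78) in the progenitor, and T93015C stood at 0.438 (32 of 73) and 0.149 (11 of 74). Their adjusted p by the exact test were 0.0275 and 0.00603. On 000810F, C4748T had 53 of 114 pool and 16 of 73 progenitor reads, T4809G had 42 of 91 and 16 of 74, and G4574A had 47 of 110 and 13 of 68. Their adjusted p by the exact test were 0.0251, 0.0365 and 0.0381. All 6 shared sites of 000810F, between positions 4522 and 4809, were higher in the pool by 0.199 to 0.246. Their coverage was 87 to 126 reads in the pool and 61 to 80 in the progenitor, a ratio of 1.23 to 1.63. The same reads can cover several of these sites.

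**Figure D4:**
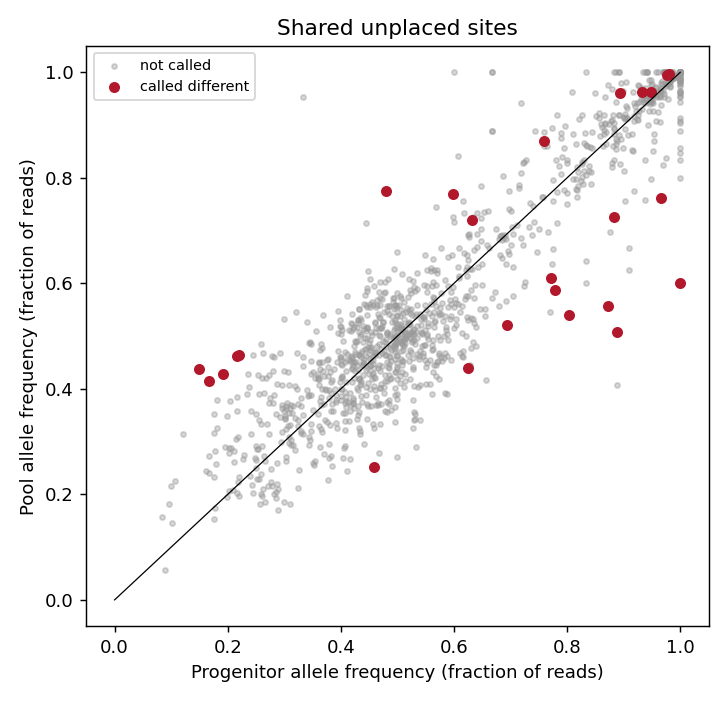
Allele frequency of the 1296 shared unplaced sites in the progenitor (x axis) and the pool (y axis), as fractions of reads. The 25 sites called different by Fisher's exact test are in red and the line marks equality. Most sites follow the line, and called sites lie on both sides of it.

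Unplaced sequences had more reads in the pool relative to the progenitor than chromosomes did. Over shared sites the median ratio of pool to progenitor coverage was 1.14 on unplaced sequences (0.953 to 1.37) and 1 on chromosomes (0.857 to 1.2), where single chromosomes ran from 0.901 to 1.03. Over the 119 unplaced sequences with at least 3 shared sites the median ratio was 1.17, 85 of them (71.4%) lay above 1, 18 lay at 1.5 or more and 2 at 0.67 or less. By the geometric mean of the relative depths of both libraries, the unplaced ratio was above the chromosomal one in 5 of 6 ranges. It was 1.19 against 1.085 from 0.5 to 1.5, 1.06 against 0.978 from 1.5 to 2.5, and 1.16 against 0.938 from 2.5 to 3.5. From 3.5 to 10 it was 1.27 against 0.992, and from 10 upwards 1.17 against 0.807. Below 0.5 the order was the opposite, 1.125 over 123 unplaced and 1.333 over 659 chromosomal sites. With 1 library per group the spread of such ratios between libraries of 1 genotype is unknown, so no test was made.

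Some single sequences were far from the common ratio. Scaffold_362 had the highest, 2.81 over 6 shared sites, but it ran from 0.965 to 6.57. Scaffold_208 stood at 2.57 over 5 sites (1.45 to 3.49), with pool coverages from 135 to 146 reads at those sites and progenitor coverages from 39 to 93. Scaffold_274 stood at 2.30 over 10 sites (1.22 to 8.2). Scaffold_592, picked after its values were seen, stood at 2.12 over 10 sites with a range of 1.94 to 2.38 and was thus more even than these 3. At the low end, scaffold_740 stood at 0.532 over 5 sites (0.514 to 0.623), scaffold_203 at 0.643 over 7 sites and scaffold_213 at 0.797 over 7 sites.

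Among unplaced sites, the share of mutagen-type changes in the pool list alone was close to that in both lists. After minimums of 25 for variant quality and 10 for coverage, 183 unplaced pool-only sites remained of 705. Changes of G to A or C to T made up 51 of them, 27.9% (21.9 to 34.8%), against 29.2% (26.5 to 32.1%) of 996 shared and 26.9% (19.4 to 35.9%) of 108 progenitor-only unplaced sites. On the chromosomes the same changes made up 54.6% (52.6 to 56.6%) of 2453 pool-only sites and 33.5% (32.4 to 34.6%) of shared sites, so the interval of the unplaced pool-only share lay below the chromosomal one. Conversely A-to-G and T-to-C made up 23.0% (17.5 to 29.6%) of unplaced and 8.44% (7.40 to 9.61%) of chromosomal pool-only sites. G-to-T and C-to-A, which led the progenitor-only sites of the chromosomes at 55.2% (52.3 to 58.0%), made up 17.6% (11.6 to 25.8%) of the unplaced ones.

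Sites near-fixed in both libraries also differed in type between unplaced sequences and chromosomes. With both minimums and at most 100 reads in each library, 62 unplaced sites on 38 sequences were near-fixed in both libraries, and 19 of them, 30.6% (20.6 to 43.0%), were G-to-A or C-to-T. On the chromosomes it was 595 of 692, or 86.0% (83.2 to 88.4%). Most of those lay on chromosomes 2 and 8, at 93.3% of 563 sites. On the other 6 chromosomes the share was 54.3% (45.7 to 62.6%) of 129 sites, from 0 of 7 on chromosome 5 to 30 of 43 on chromosome 7. The unplaced sites were partly clustered: scaffold_151, scaffold_204 and scaffold_495 held 5 each. On scaffold_204, picked after its values were seen, A54959T, T54973C, C54982A and C54991A lay close together and all 4 had no reference read in the pool, where 34 to 63 reads covered them.

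The 51 unplaced G-to-A or C-to-T sites listed in the pool alone are called markers here, since changes of this type that a mutagen induced would be among them. On 37 sequences they numbered 23 (G-to-A) and 28 (C-to-T), beside 900 and 439 on chromosomes. Their median allele frequency was 0.473 (0.331 to 0.572), against 0.491 (0.409 to 0.581) on the chromosomes. Between 0.4 and 0.6 lay 20 of them (39.2%), against 55.1% on the chromosomes. Only 29 of the 51 had a relative depth between 0.5 and 1.5. Those 29 had a median of 0.460 (0.341 to 0.535). Markers of single chromosomes, taken at all depths, had medians from 0.435 on chromosome 2 to 0.833 on chromosome 8.

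Scaffold_114, picked after its values were seen, held the most markers. Its 5 markers were all C-to-T, with coverages from 53 to 82 reads and allele frequencies from 0.387 to 0.535. They were C30329T with 37 of 82 reads, C32789T with 37 of 71, C37168T with 26 of 53, C40865T with 24 of 62 and C258530T with 38 of 71. The relative depth of scaffold_114 was 0.891 over its pool sites and 0.203 over the 3 sites of the progenitor list, a thin depth. Progenitor coverage at the positions of the markers themselves is not known from the lists. Altogether 9 sequences held more than 1 marker, and in 5 of them, scaffold_114 included, all markers were of the same type. Most of the 9 held only 2 markers. How often pairs drawn from the 23 G-to-A and 28 C-to-T markers would match in type was not tested. Both markers of scaffold_142 (named after its values were seen) were G-to-A, at 0.559 and 0.571.

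Of the 51 markers, 5 (9.80%) were near-fixed, against 53 of 1339 (3.96%) on the chromosomes, 40 of them on chromosome 8. Of the 29 markers at a relative depth of 0.5 to 1.5, 1 (3.45%) was near-fixed. G31097A on scaffold_281 had 70 of 74 reads (0.946, 0.869 to 0.979). G1314A on scaffold_358 had 19 of 19 reads (0.832 to 1), C29479T on scaffold_208 had 12 of 12 (0.758 to 1) and C20286T on scaffold_270 had 10 of 11 (0.909, 0.623 to 0.984). These 3 sites were covered below 0.5 copies. C19476T on scaffold_313 had 6110 reads, far above 1 copy. Next below the threshold were G45181A on scaffold_143, with 43 of 50 reads (0.86, 0.738 to 0.930), and G10169A on scaffold_257, with 47 of 57 (0.825, 0.706 to 0.902), both picked after their values were seen. Where these sequences belong in the genome was not analysed here.

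**Figure D5:**
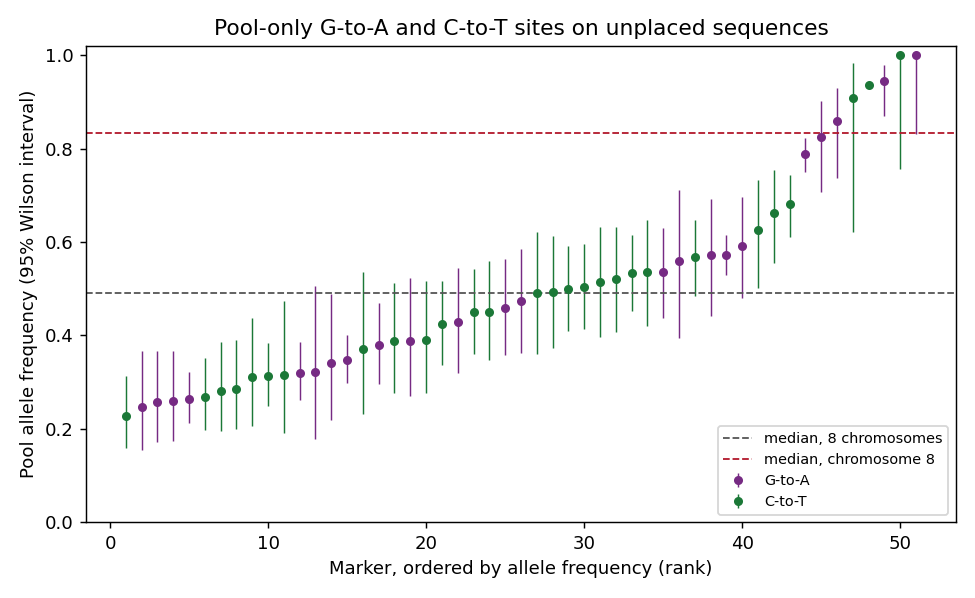
Allele frequency in the pool (y axis) of the 51 unplaced markers, ordered by frequency (x axis), with 95% Wilson intervals as bars. Dashed lines give the marker medians of all 8 chromosomes (0.491) and of chromosome 8 (0.833). Most markers lie around or below 0.491, and 5 are at 0.9 or more.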

How the data were processed

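Genomic DNA of 1 pool and 1 progenitor library had been sequenced, and the deposited lists were matched to samples by the genotype in each sheet name. The submitters' processing notes name Bowtie2, SAMtools and DESeq. Their roles, the genome build and any filters were not given in the sources used here. The progenitor's sheet name carries a further version-like label that the pool's lacks, so the lists may have been processed differently, which would affect sharing and coverage ratios. The deposited column headed reads was taken as a variant quality score, and the column headed quality as the count of alternative reads. These headers thus look exchanged. The check below bears on the count, and that the other column is a quality score was not verified. Per the file headers, AF is the allele frequency, a fraction of reads. Count over fraction, rounded, gave the coverage. It returned the deposited fraction within 5e-05 at 2001 of 2001 pool and 1802 of 1802 progenitor unplaced sites, and was not unique at 2 and 1. No column was left unmatched.

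All listed sites entered counts, sharing and depth. Frequencies, substitution types and markers used minimums of 25 (quality) and 10 (coverage), except values by depth class or range, which used all sites. Fisher's exact test with Benjamini-Hochberg adjustment covered all 9753 shared sites. It was run on simulated data with independent sites and large set differences. Those data cannot show how it behaves at linked neighbouring sites or for small differences at deep sites. Python 3.11.15, numpy 2.4.6, pandas 2.3.3, scipy 1.17.1, statsmodels 0.14.6 and matplotlib 3.10.9 were used.

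A rule named the 10 sequences with most positions, the 5 deepest and 5 thinnest with at least 5 pool sites, the 3 highest and 3 lowest coverage ratios, near-fixed markers, the 10 largest called differences and the 5 deepest sites per list. The members and lists were chosen with earlier results of these data known. Alternatives changed minimums, class limits, matching, subtraction and the sequence with most positions.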

Additional observations from a re-analysis of the deposited data

How the results depend on the processing

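Of 148 alternative values of the summary results, 83 stayed within 1.5 times the main value for counts or within its 95% binomial interval otherwise. The other 65 moved. Reversals of direction were not scored. The counts of collapsed sequences, the coverage ratios and the shares of G-to-A or C-to-T did not move. Unless given, the cause was not tested.
Calls of the exact test numbered 14 (8 higher, 6 lower in the pool) with both minimums, 5 (2 and 3) at up to 100 reads and 1 (1 and 0) by Bonferroni. These were 14 of 877, 5 of 345 and 1 of 1296 unplaced sites, beside 277 of 7564, 29 of 2434 and 158 of 9753 over all sites. At up to 100 reads the unplaced share was above that of all sites, whereas in the main result it was below.
With both minimums applied to both lists, the shared share was 74.4% of unplaced pool and 80.8% of unplaced progenitor sites. Of the 7564 sites then shared, 877 were unplaced, and 9755 pool and 8398 progenitor sites passed on the chromosomes. The unplaced pool share was thus above the chromosomal one, unlike without minimums, and the progenitor shares were close. Median coverage was 118 and 111 reads at a quality of at least 25, and 67.5 and 77.75 as a median over sequences, which weights sequences with few sites more.
Depth classes moved with the sites required per sequence, since this changes the sequences counted. With at least 1 site, pool and progenitor had 127 and 110 thin, 94 and 86 single-copy, and 14 and 14 high-copy sequences. With at least 5 sites there were 25 and 18 thin sequences, and in the pool 28 single-copy and 5 high-copy. A quality of at least 25 left 16 and 10 thin, 30 single-copy in the pool and 4 high-copy in the progenitor. Narrower single-copy limits left 30 and 25 single-copy, and a limit of 5 gave 20 and 14 high-copy.
The median allele frequency, 0.504 in the pool and 0.507 in the progenitor, was 0.518 and 0.534 at up to 100 reads, 0.533 and 0.553 without minimums, and 0.524 in the progenitor with no quality minimum. Near-fixed shares, 16.7% and 17.1%, were 19.1% and 20.6% with no quality minimum, 27.1% and 25.5% at up to 100 reads, and 25.4% and 25.4% without minimums. Shares between 0.4 and 0.6, 44.4% and 45.4%, were 39.3% and 39.2%, 20.1% and 30.4%, and 36.1% and 36.5% in the same settings, and 41.3% and 42.3% without scaffold_254.
Markers numbered 140 (22 near-fixed) with no quality minimum, 86 (18 near-fixed, median 0.535) when only progenitor sites past the minimums were subtracted, and 29 (1 near-fixed) at 0.5 to 1.5 copies. Near-fixed markers were 2 at a coverage of at least 20 and 2 at a threshold of 0.95.
Chosen after seeing the data, the median frequency below 0.5 copies, 1 in both lists, was 0.947 and 0.857 at a quality of at least 25, and 0.774 and 0.875 with at least 10 reads. No replicate could be left out. No paired analysis was possible because only 1 library stood on each side.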
